A study of Mus musculus with 2 samples.

Results

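The 39 cell cycle and replication genes described here were taken by name from the 38924 genes of the deposited tables, in pancreatic islets of CAST mice (CAST/EiJ, a wild-derived inbred strain) and of B6 mice (C57BL/6J, a common laboratory strain). They are 8 cyclins, 4 cyclin-dependent kinases (CDKs), 5 CDK inhibitors, 8 mitotic genes, 10 replication genes and 4 transcriptional regulators, and each was found in both tables. Each strain gave 1 RNA-seq library, made from 250 islets pooled from 2 male mice of 10 weeks that had received no treatment and carried no engineered allele named in the labels. Islets were isolated by collagenase digestion and hand picking, and held in buffer with 16.7 mM glucose. With 1 library per strain no difference had a replicate check and no test was made, so strain, pool and library cannot be told apart. All values below compare 2 libraries.

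Cells enter division when D cyclins with CDK4 or CDK6 phosphorylate the retinoblastoma protein and release E2F factors, which raise the genes of the next steps: E cyclins, the MCM helicase and the enzymes that make deoxynucleotides. CDK inhibitors hold this step back, and a second wave of genes, driven through FOXM1 and the MuvB complex, builds the mitotic spindle. Most beta cells of adult mice are quiescent, and mouse genetics has tied Cdk4 and Ccnd2 to the growth of beta cell mass after birth. In whole islets the RNA of dividing cells is diluted by that of resting cells and may come from any cell type of the islet.

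The libraries held 104324669 expected counts in CAST and 76600970 in B6. Ratios are the log2 ratio of CAST over B6 of expected counts scaled by TMM factors, read for genes whose counts in CAST and B6 together reached 100. The range in parentheses is the exact (Clopper-Pearson) 95% interval for counting error only. Levels are TPM, which are per transcript length and sum to 1000000 in each library. Over the 14768 genes with enough counts the median log2 ratio was 0.02 by scaled counts and -0.33 by TPM, so a TPM ratio is read against -0.33. Beta cell markers summed to 557386 TPM in CAST and 490094 TPM in B6, and alpha cell markers to 39337 and 65930 TPM, so both libraries carried the hormone genes that define islets. Of 9 acinar markers 7 were at least 2-fold higher in CAST (13464 TPM in CAST, 4476 TPM in B6), as were 5 of 8 fibroblast markers (50.7 and 26.6 TPM). Endothelial markers summed to 201.4 TPM in CAST and 223.0 TPM in B6, with a median ratio of 0.41 and 1 of 7 at least 2-fold higher. Duct markers summed to 70.5 and 113.4 TPM, with a median ratio of 0.48 and 2 of the 5 with enough counts at least 2-fold higher. Leukocyte markers summed to 19.4 and 30.2 TPM, with a median ratio of 0.23 and 0 of 7 past 2-fold. For comparison, 7.18% of all genes with enough counts passed 2-fold on the CAST side and 5.99% on the B6 side. There was no marker of the 7 lists at 0 counts in a library. The part of these other cells in the values below was not tested, and in bulk islets fewer cells of a type and less RNA per cell cannot be told apart.

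A few genes of G1 phase carried most of the transcripts in both libraries, and the mitotic genes were scarce. The 39 genes summed to 415.7 TPM in CAST and 533.8 TPM in B6. The 3 D cyclins, Cdk4 and the inhibitors Cdkn1a and Cdkn1b held 75.3% of that sum in CAST and 74.6% in B6. Ccnd2 came first in both, at 119.3 TPM in CAST and 151.7 TPM in B6. The 8 mitotic genes together reached 5.32 TPM in CAST and 6.42 TPM in B6, which was 1.28% and 1.2% of the sum. By role the cyclins summed to 175.9 TPM in CAST and 239.5 TPM in B6, the CDKs to 77.0 and 98.6 TPM, the inhibitors to 78.5 and 86.3 TPM, and the regulators to 21.7 and 22.6 TPM. The log2 ratio of these sums ran from -0.49 for the replication genes to -0.06 for the regulators, beside -0.33 as the median of all genes on that scale. Of the 39 genes 26 had a TPM of 1 or more in both libraries and 10 were under 1 in both. None had 0 counts in either library, so even the rarest mitotic transcripts were seen.

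**Figure D1:**
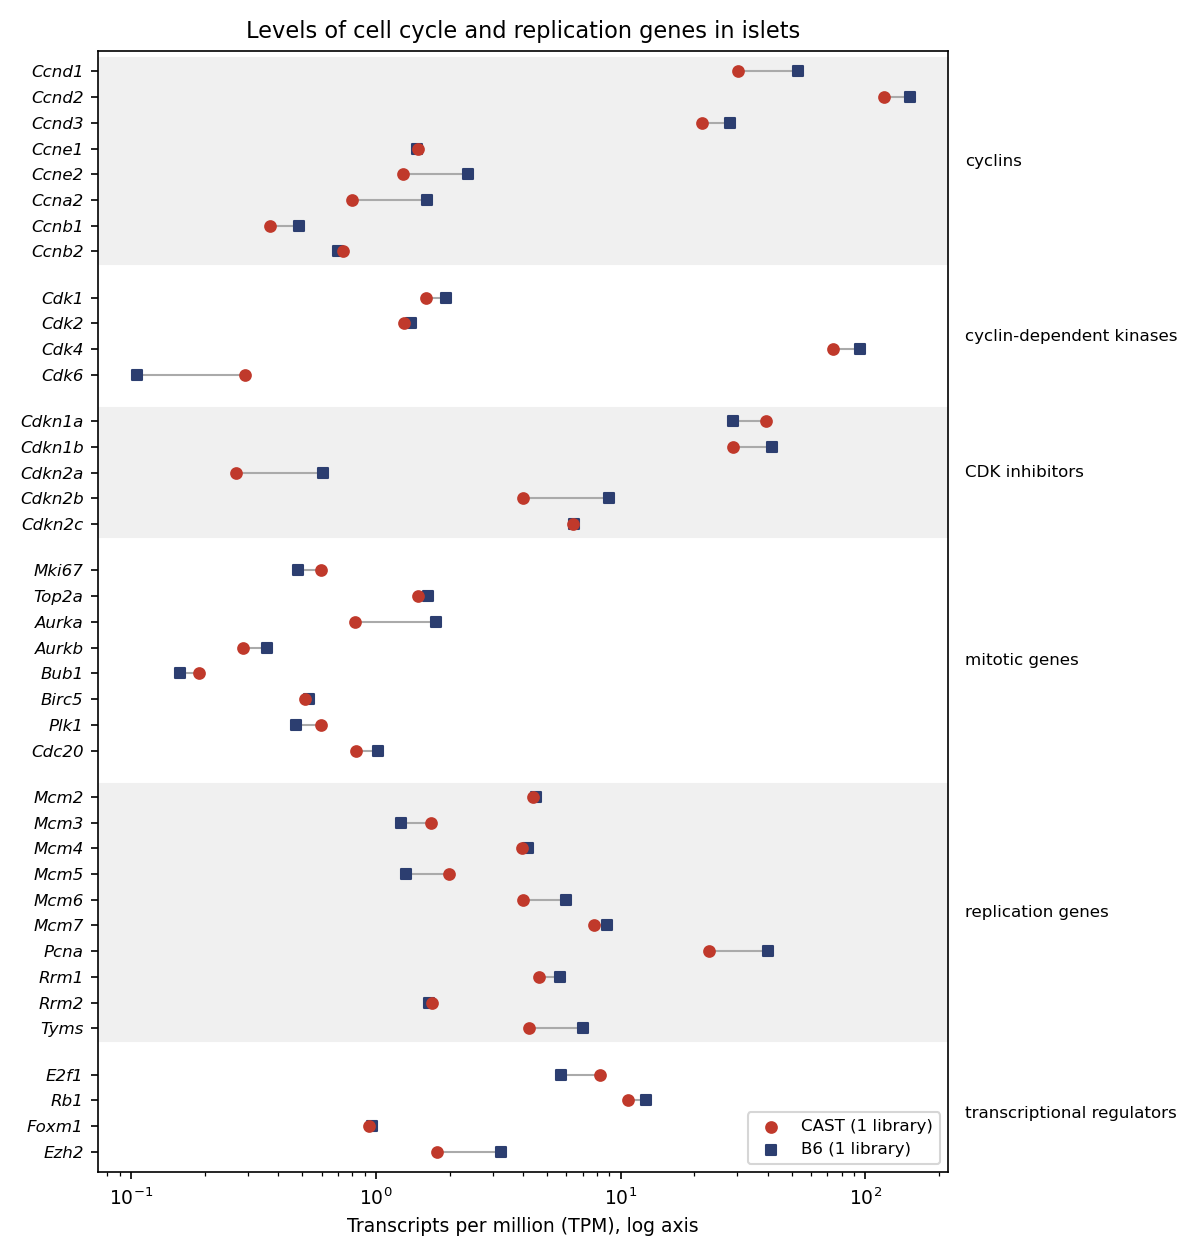
Level of each of the 39 genes in TPM (log axis), grouped by role, with CAST as red circles and B6 as blue squares, 1 library each. D cyclins, Cdk4, Cdkn1a, Cdkn1b and Pcna sit above 20 TPM in both libraries, and most mitotic genes sit near or below 1 TPM.

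Between strains most of the genes were close. Of the 35 with enough counts, 1 was at least 2-fold higher in CAST (Cdk6), where 7.18% of all genes were, and 0 were at least 2-fold lower, where 5.99% were. At 1.5-fold 7 were higher in CAST (20.0%, against 12.4% of all genes) and 3 were lower (8.57%, against 12.8%). Those higher were Cdk6, Mcm5, E2f1, Cdkn1a, Mcm3, Plk1 and Mki67, and those lower were Cdkn2b, Aurka and Ccna2. The median log2 ratio was 0.13, with 23 genes above 0 and 12 below, beside 0.02 over all genes. Its sign followed the scaling: by total counts it was -0.029, beside -0.14 over all genes, and by log2(TPM + 1) it was -0.14, beside -0.26. Without the 8 genes that share exons with another gene it was 0.31, and without the 3 that have a near-identical copy it was 0.21. By role the medians were -0.16 for cyclins, 0.19 for CDKs, 0.04 for the 4 inhibitors with enough counts, 0.34 for mitotic genes, 0.17 for replication genes and 0.29 for regulators. The counting interval lay above 0 for 16 genes, below 0 for 10 and across 0 for 9. Under 5 scalings 28 of these 35 genes kept their sign, 17 on the higher side in CAST and 11 on the lower side. The shares of all genes that did so are not given here, so these counts are not read as a trait of the cell cycle genes. The other 4 genes, Aurkb, Bub1, Birc5 and Cdkn2a, had under 100 counts and are given by their counts.

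**Figure D2:**
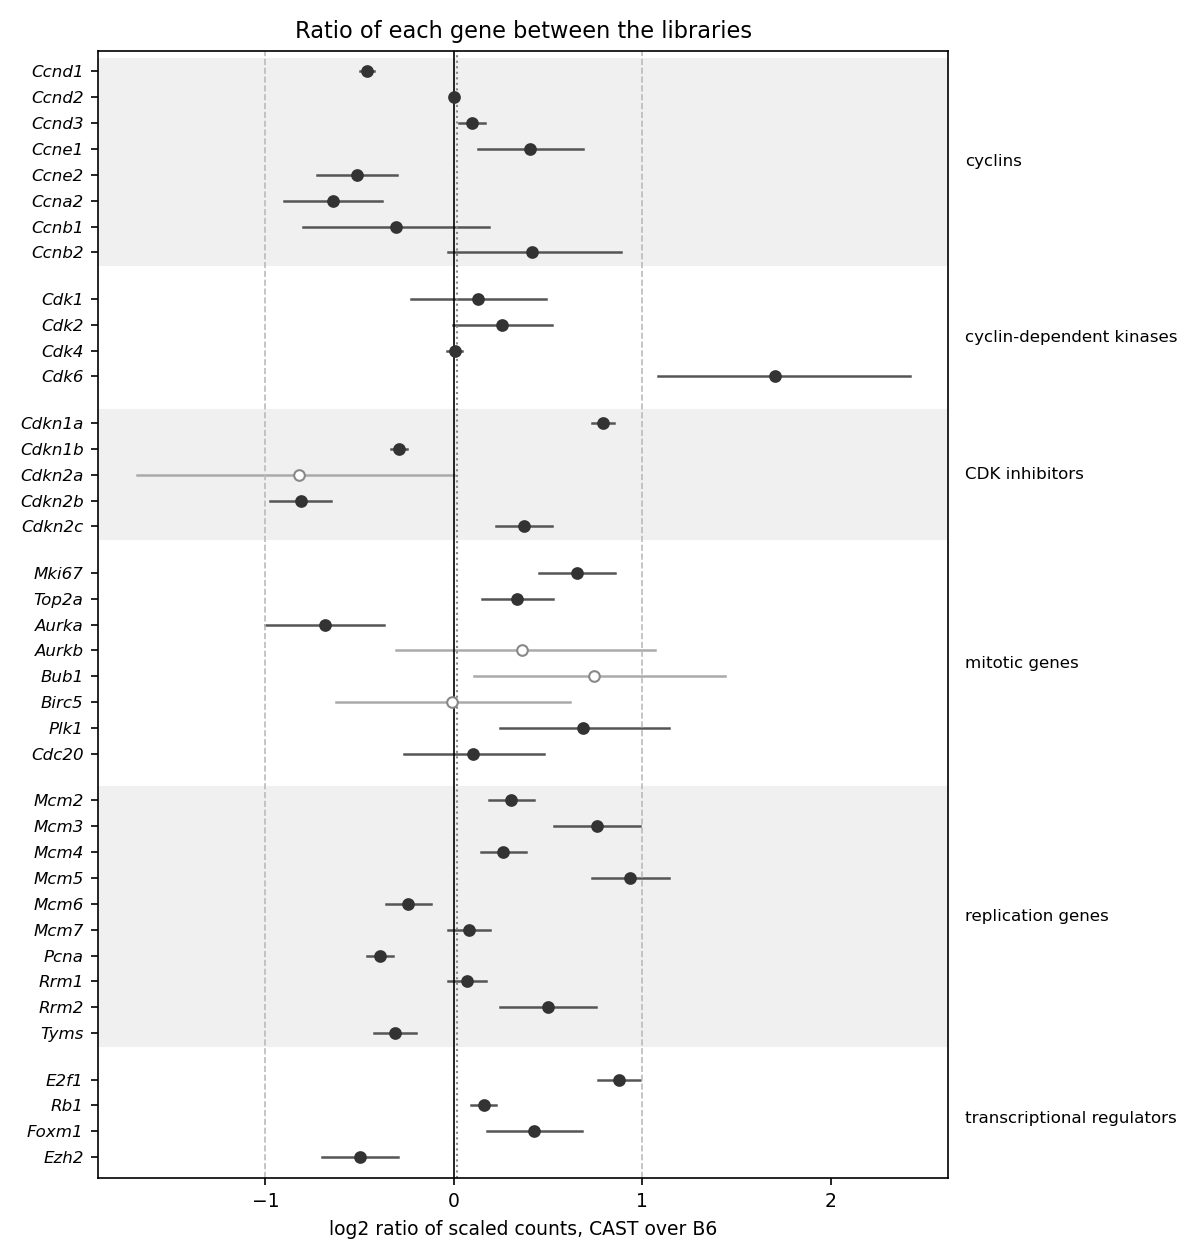
Log2 ratio of CAST over B6 for each gene by role, with bars for the 95% counting interval and open points for the 4 genes under 100 counts. The dotted line is the median of all genes (0.02) and the dashed lines mark 2-fold. Cdk6 at 1.70 is the filled point beyond a dashed line.

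Among the cyclins, which activate the CDKs, the D type carried nearly all transcripts. Ccnd2 (chr6:127125162-127152193) had 67422 counts in CAST and 55224 in B6, and its scaled ratio was -0.0011 (-0.02 to 0.02). Ccnd1 (chr7:144929931-144939925) had 10991 counts and 30.3 TPM in CAST and 12386 counts and 53.2 TPM in B6, a log2 ratio of -0.46 (-0.50 to -0.42). Ccnd3 stood at 21.5 TPM in CAST and 27.9 TPM in B6 with a ratio of 0.09 (0.03 to 0.16), whose sign turned under total-count scaling and by centred TPM. The most abundant cyclin was thus level between the libraries, while Ccnd1 was 1.38-fold higher in B6. Exons of Ccnd1 overlap those of LTO1, on the opposite strand, over 1100 bases, so some of its reads could be from that gene. Ccnd3 likewise shares 361 exon bases with Bysl, on the other strand.

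The 2 E cyclins, which drive entry into S phase with CDK2, lay on opposite sides. Ccne1 had 288 counts in CAST and 178 in B6, a ratio of 0.40 (0.13 to 0.68). Ccne2 had 340 counts in CAST and 397 in B6, a ratio of -0.51 (-0.73 to -0.30). Per length they were close in CAST, at 1.49 TPM for Ccne1 and 1.29 TPM for Ccne2, whereas in B6 Ccne1 stood at 1.48 TPM and Ccne2 at 2.39 TPM. Ccna2, the cyclin of S phase and G2, had 221 counts and 0.797 TPM in CAST and 282 counts and 1.61 TPM in B6, a log2 ratio of -0.64 (-0.90 to -0.38). Ccna2 shares 510 exon bases with Exosc9 and Ccne2 shares 609 with Ints8, each on the other strand. The mitotic B cyclins were rare, with 71 counts of Ccnb1 in CAST and 72 in B6 (-0.31, -0.80 to 0.18) and 108 counts of Ccnb2 in CAST and 66 in B6 (0.42, -0.03 to 0.89). At this depth no difference in the B cyclins was detectable.

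Of the kinases, Cdk4 was the abundant one, and its scaled ratio lay near 0. Cdk4 (chr10:127063534-127067920), the partner of D cyclins on which beta cell growth in mice depends, had 11722 counts and 73.8 TPM in CAST and 9564 counts and 95.2 TPM in B6, a ratio of 0.0045 (-0.03 to 0.04). By total counts it was -0.15 and from its most abundant transcript 0.22, and 641 of its exon bases overlap Tspan31 on the other strand. Cdk6 (chr5:3341485-3531008), the other partner of D cyclins, had 101 counts in CAST and 25 in B6. That was 0.293 TPM in CAST and 0.106 TPM in B6, a log2 ratio of 1.70 (1.08 to 2.42) or 3.26-fold. It was the one gene of the 39 past 2-fold and also among the scarcest, so Cdk4 outnumbered it by far in both libraries, and with 1 TPM added to each level its log2 ratio was 0.23. Cdk2, the S phase kinase, had 298 counts in CAST and 204 in B6 (0.26, -0.0041 to 0.52). Cdk1, the kinase of mitosis, had 155 counts in CAST and 116 in B6 (0.13, -0.23 to 0.49).

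The inhibitors went in both directions. Cdkn1a (chr17:29090976-29100727), which encodes p21, a p53 target, had 7116 counts and 39.1 TPM in CAST and 3362 counts and 28.7 TPM in B6, a log2 ratio of 0.79 (0.73 to 0.85) or 1.73-fold. Cdkn1b, which encodes p27 and is the main CDK inhibitor of resting cells, had 8304 counts in CAST and 8311 in B6, a ratio of -0.29 (-0.33 to -0.25). By TPM Cdkn1a stood above Cdkn1b in CAST (39.1 against 28.8) and below it in B6 (28.7 against 41.6). Read from the most abundant transcript of each gene, Cdkn1a-201 stood above Cdkn1b-201 in both libraries, at 38.4 against 21.3 TPM in CAST and 28.1 against 26.7 TPM in B6. On that reading the log2 ratio of Cdkn1b was 0.02, but it leaves out Cdkn1b-202, with 3347 counts in CAST and 4310 in B6. Summed over its transcripts, Cdkn1b stayed below 0 under all 5 scalings (-0.45 to -0.20). The order of the p21 and p27 genes in B6 thus differed between the gene sum and the most abundant transcript.

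The INK4 inhibitors, which bind CDK4 and CDK6, were lower in level. Cdkn2b (chr4:89306299-89311039), which encodes p15, had 528 counts and 4.0 TPM in CAST and 759 counts and 8.93 TPM in B6, a ratio of -0.81 (-0.98 to -0.65) or 1.76-fold higher in B6. Cdkn2c, which encodes p18, had 968 counts in CAST and 612 in B6, a ratio of 0.37 (0.22 to 0.52). The neighbour of Cdkn2b, Cdkn2a, whose p16 product accumulates in ageing beta cells, had 22 counts in CAST and 32 in B6. RSEM assigned all of these to Cdkn2a-202, which starts at position 89294653 of chromosome 4 at the upstream promoter, that of the Arf product. None went to Cdkn2a-201, which starts at 89282192, the p16 start. The 2 transcripts share their later exons, so this division rests on few reads.

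The mitotic genes stood mostly above 0, with Aurka on the other side. Of the 8 genes 5 had enough counts, with a median of 0.34, 4 above 0 and 1 below. Mki67 (chr7:135689784-135716361), which encodes the proliferation marker Ki-67, had 598 counts in CAST and 311 in B6, a ratio of 0.65 (0.45 to 0.86). Per length it stood at 0.595 TPM in CAST and 0.480 TPM in B6. Plk1, a kinase of mitotic entry and spindle assembly, had 128 counts in CAST and 65 in B6, a ratio of 0.68 (0.25 to 1.14). Top2a, the topoisomerase that untangles sister chromatids, had 594 counts in CAST and 385 in B6, a ratio of 0.34 (0.15 to 0.53). These 3 genes were higher in CAST beyond counting error.

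Aurka (chr2:172356190-172370535), the kinase of centrosome maturation, had 148 counts and 0.822 TPM in CAST and 195 counts and 1.76 TPM in B6, a log2 ratio of -0.69 (-1.01 to -0.37) or 1.61-fold higher in B6. Cdc20, which activates the anaphase-promoting complex, had 143 counts in CAST and 109 in B6 (0.10, -0.27 to 0.48). It shares 53 exon bases with Elovl1, on the other strand. Of the 3 mitotic genes under 100 counts, the spindle checkpoint kinase Bub1 had 62 counts in CAST and 30 in B6. The kinase of the chromosomal passenger complex, Aurkb, had 49 and 31 counts, and its partner Birc5, which encodes survivin, had 51 and 42. Taken by the phase in which genes usually peak, the 10 G2/M genes with enough counts had a median of 0.23 and the 13 G1/S genes one of 0.26, so the medians of the 2 waves were close.

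The replication genes were led by Pcna and spread over both directions. Their median was 0.17, with 7 of 10 above 0 and 3 below (0.26 without Pcna, which has a copy, or without Mcm7, which shares exons), and their sum was 57.2 TPM in CAST and 80.3 TPM in B6. Among the 6 Mcm genes, whose products form the ring-shaped helicase that opens DNA, 5 stood above 0. Mcm5 (chr8:75109569-75128439) had 671 counts and 2.0 TPM in CAST and 287 counts and 1.33 TPM in B6, a ratio of 0.93 (0.73 to 1.14) or 1.91-fold. Mcm3 (chr1:20802968-20820312) had 492 counts in CAST and 238 in B6, a ratio of 0.76 (0.53 to 0.99). Mcm6 (chr1:128331590-128359664) was the one below 0, with 1129 counts and 3.98 TPM in CAST and 1092 counts and 5.98 TPM in B6, a ratio of -0.24 (-0.36 to -0.12). Mcm2 stood at 0.31 (0.19 to 0.43), Mcm4 at 0.26 (0.14 to 0.38) and Mcm7 at 0.08 (-0.03 to 0.19).

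The helicase holds 1 copy of each of the 6 subunits, and their transcripts were not at equal levels. Summed over transcripts, Mcm7 was highest and Mcm3 lowest in both libraries, at 7.81 and 1.68 TPM in CAST and at 8.84 and 1.26 TPM in B6. The highest was thus 4.64 times the lowest in CAST and 7.0 times in B6. The sum for Mcm7 includes shorter transcripts, and Mcm7-201, its most abundant one, held 82.5% of its counts in CAST and 85.3% in B6. Read alone, without the rest of these counts, Mcm7-201 stood at 4.20 TPM in CAST, below Mcm2 at 4.38 TPM. In B6 Mcm7-201 stood at 5.22 TPM, below Mcm6 at 5.98 TPM. Without Mcm7, part of whose exons overlap Ap4m1 and Cops6 on the other strand, the spread was 2.60-fold in CAST and 4.74-fold in B6. The subunit transcripts were closer to each other in CAST, where the 2 scarcest, Mcm3 and Mcm5, were higher.

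Promoters are shown for 4 genes: Mcm5 and Mcm6, which stand at opposite ends of the helicase genes by strain ratio, and Cdk1 and Top2a for the motif of the mitotic wave. The sequences are those of RefSeq for GRCm38.p6, so of the B6 reference and not of CAST, and each gives the 200 bases before the annotated start, 5′ to 3′ on the strand of the gene. Capitals mark E2F motifs (TTTCCCGC, TTTGGCGC, TTTCGCGC or TTTGCCGC) in Mcm5 and Mcm6, CHR motifs (TTTGAA or TTCGAA) in Top2a, and both in Cdk1, on either strand. In Mcm5 and Mcm6 a run of 12 capitals is a pair of E2F matches that overlap on opposite strands. Mcm5 lies at chr8:75109309-75109508 (plus strand), Mcm6 at chr1:128359706-128359905 (minus strand), Cdk1 at chr10:69352913-69353112 (minus strand) and Top2a at chr11:99024190-99024389 (minus strand).
Mcm5: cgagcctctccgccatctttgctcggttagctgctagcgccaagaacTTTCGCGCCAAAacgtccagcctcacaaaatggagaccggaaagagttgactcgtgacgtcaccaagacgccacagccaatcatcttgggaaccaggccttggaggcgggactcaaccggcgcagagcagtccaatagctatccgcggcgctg
Mcm6: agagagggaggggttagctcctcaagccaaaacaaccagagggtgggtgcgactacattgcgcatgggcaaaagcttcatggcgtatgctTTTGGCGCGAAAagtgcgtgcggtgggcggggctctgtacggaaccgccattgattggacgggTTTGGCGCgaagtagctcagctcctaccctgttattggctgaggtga
Cdk1: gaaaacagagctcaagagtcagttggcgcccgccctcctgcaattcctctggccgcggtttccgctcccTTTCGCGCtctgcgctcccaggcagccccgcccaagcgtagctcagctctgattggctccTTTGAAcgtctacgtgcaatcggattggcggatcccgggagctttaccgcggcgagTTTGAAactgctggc
Top2a: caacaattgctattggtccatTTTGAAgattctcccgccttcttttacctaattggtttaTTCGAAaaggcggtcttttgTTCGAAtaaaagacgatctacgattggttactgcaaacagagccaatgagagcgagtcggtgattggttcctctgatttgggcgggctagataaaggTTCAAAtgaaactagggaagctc

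Both helicase genes carry E2F motifs, at 149 and 153 bases before the start in Mcm5 and at 47, 106 and 110 bases in Mcm6, although their strain ratios differed in sign. The promoters of 31 of the 39 genes were in the table, from 250 bases before to 50 after the start. Of these 8 (25.8%) held an E2F motif, against 2.6% of 27025 promoters. A CHR motif was in 11 (35.5%, against 21.7%) and the CCAAT box, 5 letters bound by NF-Y, in 23 (74.2%, against 41.1%). E2F matches were in 4 of 9 replication genes (Mcm3, Mcm5, Mcm6 and Mcm7) and in 0 of 7 mitotic genes. CHR matches were in 6 of those 7 mitotic genes (Mki67, Top2a, Aurka, Bub1, Plk1 and Cdc20) and in 2 of the 9 replication genes (Mcm2 and Mcm7). Cdk1 held both. Aurka and Plk1, both with a CHR match, had strain ratios of opposite sign (-0.69 and 0.68). The CHR letters are short and common, and a match describes these letters only. The 8 genes with no promoter entry are Ccnd1, Ccnd2, Ccne2, Ccna2, Aurkb, Mcm4, Rb1 and Foxm1.

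Pcna (chr2:132249162-132253314), the sliding clamp of the DNA polymerases, gave a ratio that depended on where reads of a near-identical pseudogene were placed. It had 3238 counts and 22.9 TPM in CAST and 3477 counts and 39.9 TPM in B6, a ratio of -0.39 (-0.46 to -0.32). The processed pseudogene Pcna-ps2 on chromosome 19 matches it at 99.23% over its aligned length, and was assigned 1554 counts in CAST and 0 in B6. Added together they gave 4792 counts in CAST and 3477 in B6, a ratio of 0.17 (0.11 to 0.24), so the direction of Pcna turned. Both libraries were quantified on 1 reference build, and whether the pseudogene reads of CAST came from Pcna itself was not tested.

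Ccnb1 showed the same arrangement at low counts. Its copies Gm12856 on chromosome 4 and Ccnb1-ps on chromosome 7 were assigned 25 and 4 counts in CAST and 0 each in B6. With them Ccnb1 came to 99 counts in CAST and 72 in B6, a ratio of 0.17 (-0.28 to 0.63). The copy of Cdc20 held 2 counts in CAST and 0 in B6. All 3 genes with such a copy thus had copy counts in the CAST library and none in the B6 library. Processed pseudogene copies of the further pathway genes described below did not all do so. Mdm4-ps, a copy of Mdm4, had 3038 counts in CAST and 3102 in B6. The Rfc5 copy Gm12870 had 2 and 5, and the Bmi1 copy Gm5946 had 2 and 0. The remaining ones had no counts in either library.

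**Figure D3:**
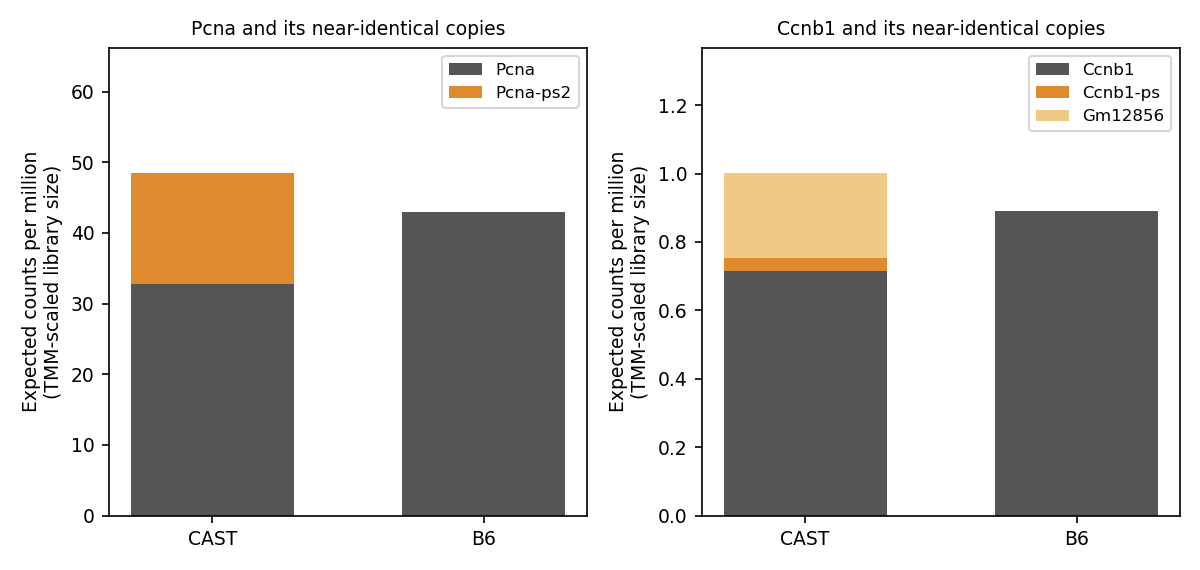
Expected counts per 1000000 of TMM-scaled library size for Pcna (left panel) and Ccnb1 (right panel) in CAST and B6, with counts of the near-identical pseudogenes stacked on top in orange. The pseudogene part is present in CAST (1554 counts for Pcna-ps2) and at 0 in B6 in both panels.

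The genes of deoxynucleotide supply lay on both sides. Rrm1, the large subunit of ribonucleotide reductase, had 1832 counts in CAST and 1431 in B6, a ratio of 0.07 (-0.03 to 0.17). Rrm2, its small subunit made in S phase, had 354 counts in CAST and 205 in B6, a ratio of 0.50 (0.25 to 0.75). Tyms, thymidylate synthase, had 1302 counts and 4.21 TPM in CAST and 1322 counts and 7.04 TPM in B6, a ratio of -0.31 (-0.42 to -0.20). The S phase subunit was higher in CAST and thymidylate synthase was higher in B6, each beyond counting error.

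Among the regulators, E2f1 (chr2:154559407-154569892), the factor that switches on S phase genes, had 2222 counts and 8.27 TPM in CAST and 991 counts and 5.73 TPM in B6. Its ratio was 0.88 (0.77 to 0.99), or 1.83-fold. Rb1, which encodes the retinoblastoma protein that holds E2F in check, had 4518 counts in CAST and 3315 in B6, a ratio of 0.16 (0.09 to 0.22). By total counts it was 0.0010, and Rb1 shares 408 exon bases with Lpar6 and 488 with Rcbtb2, each on the other strand. Foxm1, the factor of the mitotic wave, had 347 counts in CAST and 211 in B6, a ratio of 0.43 (0.18 to 0.68). Ezh2, the polycomb methyltransferase that silences the Cdkn2a locus in young mouse beta cells, had 382 counts and 1.78 TPM in CAST and 441 counts and 3.23 TPM in B6, a ratio of -0.50 (-0.70 to -0.30). Read from its most abundant transcript alone, Ezh2 stood at -1.01. Thus 3 of the 4 regulators stood above 0. Among the 26 genes of at least 1 TPM in both libraries, the ratio of E2f1 was second to that of Mcm5.

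The use of transcripts within genes was a further readout. Of the 22 genes with several transcripts and 100 counts in each library, all 22 had the same most abundant transcript by TPM in both, and in 19 its share differed by 10 points or less. By share of expected counts 21 of the 22 kept their main transcript, and Cdkn1b did not. With 20 counts required in each library 27 of 28 genes kept it by TPM, and Ccnb1 did not. Among the 22 genes the widest gaps by TPM were in Ezh2-201, with 33.4% of the gene in CAST and 47.2% in B6, and Ccnd3-205, with 86.4% and 73.9%. The third was Tyms-201, with 94.3% in CAST and 84.0% in B6. The share of the most abundant transcript was higher in CAST in 17 of the 22 genes (77.3%), where it was higher in 57% of 8981 genes. The median difference was 4.69 points for the 22 genes and 0.653 points over all. Of the 22 genes 17 had TPM on transcripts with an annotated type other than protein-coding, and in all 17 that share was lower in CAST. Its median was 6.17% in CAST and 12.7% in B6, and in 6351 other genes it was 7.26% and 9.73%, lower in CAST in 70.2% of them. RSEM divides reads among transcripts by model, so these shares carry an error that is not in the files.

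Around the 39 genes, 152 further genes of 8 cell cycle pathways were close between strains as a group. Of 151 found, 144 had enough counts, and their median ratio was 0.03. At 2-fold 4 were higher in CAST (2.78%, where 7.18% of all genes were) and 4 lower (2.78%, where 5.99% were). Of these 8 genes 7 belong to the spindle, kinetochore and cytokinesis list, which had 4 higher of 28 (14.3%, where 7.18% of all genes were) and 3 lower (10.7%, where 5.99% were). Ttk, the checkpoint kinase also called Mps1, had 245 counts in CAST and 31 in B6, a ratio of 2.67 (2.15 to 3.28) or 6.38-fold. Nuf2, of the NDC80 complex that ties kinetochores to microtubules, had 189 counts in CAST and 43 in B6, a ratio of 1.83 (1.36 to 2.36). Kif4 (1.26) and Anln (1.11), both past 2-fold by scaled counts, are named for their count after their values were seen. By TPM Kif4 was under 2-fold apart, at 0.215 in CAST and 0.178 in B6. It shares 832 exon bases with Pdzd11, on the other strand, so some of its reads could be from that gene.

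The 3 lower in CAST were led by Pttg1, which encodes securin, the inhibitor of separase, with 88 counts and 1.27 TPM in CAST and 718 counts and 14.7 TPM in B6. Its ratio was -3.31 (-3.65 to -3.00), or 9.92-fold higher in B6. Spc25, a partner of Nuf2 in the same complex and a neighbour of the islet gene G6pc2, had 33.3 TPM in CAST and 176.4 TPM in B6, a ratio of -2.11 (-2.16 to -2.06). With Racgap1 (-1.01, also named after its value was seen), this list had the widest spread in both directions while its median was 0.19. Its sum of 79.9 TPM in CAST and 246.3 TPM in B6 was mostly Spc25, and without it the sums were 46.7 and 69.9 TPM. Nuf2 and Spc25, subunits of 1 complex, thus had ratios of opposite sign. Their levels were far apart, with Nuf2 at only 0.903 TPM in CAST and 0.334 TPM in B6.

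The other 7 lists had medians between -0.25 and 0.08. Of 17 origin licensing genes 0 were 2-fold higher (where 7.18% of all genes were) and 1 was lower (5.88%, where 5.99% were). It was Gmnn, which encodes geminin, the inhibitor of licensing. Gmnn had 156 counts in CAST and 352 in B6, a ratio of -1.46 (-1.74 to -1.19). Cdc7 stood at -0.31, and Orc2 and Gins3, of the origin recognition and GINS complexes, at 0.46 each. Of 28 fork and nucleotide genes none passed 2-fold, from the polymerase delta subunit Pold1 (-0.64) to Pold2 (0.41) and Pole2 (0.65). Of 16 E2F, pocket protein and DREAM genes none passed 2-fold, with Rbl1 (p107) at -0.81, E2f3 at -0.71, Lin52 at 0.65 and E2f7, a repressor E2F, at 0.92. The share of the licensing list at least 2-fold lower was thus near that of all genes. The other 2 lists held none past 2-fold, where 7.18% of all genes were higher and 5.99% lower.

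Of 17 other cyclins and CDK regulators, the phosphatase Cdc25b (-0.90) and the ubiquitin ligase subunit Skp2, which marks p27 for destruction (-0.81), were lowest, and the kinase Wee1 (0.70) and the inhibitor Cdkn1c (0.95) highest. The 14 p53 and checkpoint genes had the lowest median, -0.25, with 5 above 0 and 9 below. At 1.5-fold 1 was higher in CAST (7.14%, where 12.4% of all genes were) and 3 were lower (21.4%, where 12.8% were). Btg2, an antiproliferative p53 target, had 131.6 TPM in CAST and 329.0 TPM in B6, a ratio of -0.98, and Chek1 stood at -0.83. Gadd45a (0.49) and Gadd45b (0.60) were on the other side, as was the p53 target Cdkn1a described above. The 13 anaphase-promoting complex subunits, from Anapc1 (-0.45) and Cdc23 (-0.09) to Cdc26 (0.18) and Cdc16 (0.30), and the 12 polycomb genes, from Ezh1 (-0.57) and Ring1 (-0.51) to Cbx2 (0.30) and Phf19 (0.35), held none past 1.5-fold. Over all genes with enough counts 25.2% were at least 1.5-fold apart in either direction. By centred TPM Cdc26 turned to -0.06.

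**Figure D4:**
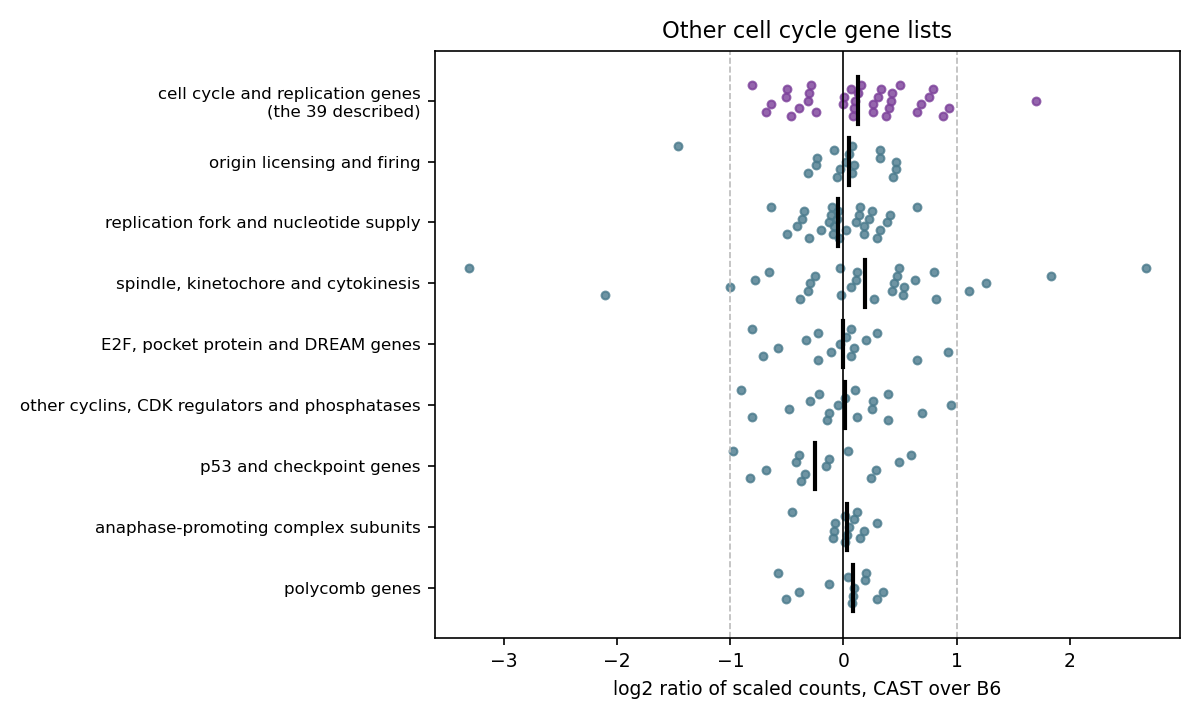
Log2 ratio of CAST over B6 of each gene with 100 or more counts, with the 39 genes in the top row and 1 row for each of the 8 pathway lists, and bars at the medians. The spindle, kinetochore and cytokinesis list has the widest spread, from Pttg1 at -3.31 to Ttk at 2.67, around a median of 0.19.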

How the data were processed

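RNA-seq was read in 2 libraries of pooled islets, 1 for CAST and 1 for B6, grouped by the strain label. The deposited table of each library lists 94545 transcripts with an expected count, which the authors estimated by RSEM on GRCm38, per the submitters' processing notes, and a second deposited value read as the fraction of transcript molecules. It sums to 1 in each table, and dividing the count by it gave a value that tracked transcript length (Spearman's rho 0.968 across 19049 transcripts in CAST and 0.967 across 18439 in B6, each with 200 or more counts). Multiplied by 1000000 it is TPM. The kit, read layout, aligner, annotation, tool versions and use of strand in counting are not stated in the sources used here. Overlapping genes on opposite strands therefore cannot be told apart. Reads of CAST carry strain variants against the reference build, and the effect on counts was not tested.

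Transcript values were summed per gene, and count sums were rounded. Symbols, positions and exons came from GENCODE M21 (GRCm38), which matched 37607 of 38924 gene IDs. Unmatched IDs held 0.172% of counts in CAST and 0.176% in B6. Ratios used TMM factors (0.947 for CAST, 1.06 for B6, edgeR 4.0.16 in R 4.3.3) with 0.5 added to each count before scaling. Reads are not independent molecules, so intervals cover counting error only. Near-identical copies were found with minimap2 2.31 (95% identity over 200 or more bases and 50% of the shorter transcript). The scripts were tested on simulated data.

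The 39 genes, the pathway lists and the marker lists were chosen with earlier results of these data known. Named are all 39 genes and, from each pathway list, the 2 highest and 2 lowest by ratio, of which 1 is not reported here. 1 of the 152 pathway symbols matched no gene. Promoters were taken from RefSeq; each is counted once per gene. No protein sequence was used. Alternatives covered scaling (DESeq2 1.42.0 size factors, total counts, TPM), low-count filters, copies, depth, transcripts and, added after seeing the data, genes with shared exons.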

Additional observations from a re-analysis of the deposited data

How the results depend on the processing

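No paired analysis was possible because each strain has 1 library and no result comes from a test, and no replicate could be left out. DESeq2 size factors, CAST counts thinned to the B6 total, and TMM factors computed without hormone and acinar genes left all 39 ratios within their counting intervals. Total-count scaling moved 16 of them out of their intervals and log2(TPM + 1) moved 28, while the median of all genes moved to -0.14 and -0.26. Under these the median of the 39 genes was -0.029 and -0.14 and that of the replication genes 0.0145 and -0.11, and the mitotic median was -0.084 by log2(TPM + 1). Except for the replication genes under total counts, these medians lay below 0, on scales where the median of all genes did too. The number of genes at least 2-fold higher in CAST was 0 by log2(TPM + 1) and 0 with 500 counts required, since Cdk6 is scarce. The number at least 1.5-fold apart was 6 by log2(TPM + 1), against 10. With each gene read from its most abundant transcript, 1 gene was at least 2-fold lower in CAST (Ezh2). The log2 ratios of summed TPM were then -0.42 for cyclins, -0.12 for kinases, -0.0148 for inhibitors, -0.12 for mitotic genes, -0.41 for replication genes and 0.0077 for regulators, against -0.45, -0.36, -0.14, -0.27, -0.49 and -0.06. Leaving out genes with shared exons (chosen after seeing the data) gave a median of 0.31 for the 39 genes, leaving out those with a copy gave 0.21, and either gave 0.26 for the replication genes. With copies added the log2 ratio of summed TPM of the replication genes was -0.19, against -0.49, by Pcna. Their median ratio was then 0.22, against 0.17. The cause of the other shifts was not tested. For genes under 100 counts, and for Cdk6 with 25 counts in B6, the depth limits what can be read.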
